A study of Mus musculus with 16 samples.

Results

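The genes described here are the 7 that encode death receptors, TNF receptors and the core of the necroptosis and caspase-8 machinery: Fas, Tnfrsf1a, Tnfrsf1b, Ripk1, Ripk3, Mlkl and Casp8. They were taken by symbol from a table of 55487 genes, and all 7 were among the 18565 genes that passed the filter on low counts. RNA came from the right hippocampus of PBS-perfused female mice, and 4 libraries of each of 4 genotypes gave 16 in all. WT mice carried neither change. CKO mice lacked Ch25h, which encodes the enzyme that makes 25-hydroxycholesterol. T mice were PS19 mice, in which the PrP promoter drives human 1N4R tau with the P301S mutation, and TCKO mice had the tau transgene and lacked Ch25h. The age is given as 40 weeks for all mice and elsewhere in the labels as 9.5 months. Replicate numbers are 1, 2, 4 and 5 in WT and CKO and 2, 3, 4 and 5 in T and TCKO, and library values are given in that order throughout. No label says that each library is 1 mouse, so a p-value here covers only the variation among libraries, which may be technical.

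Fas and TNF receptor 1, the product of Tnfrsf1a, are receptors with a death domain. Bound by Fas ligand or TNF, they assemble complexes in which FADD recruits caspase-8, the protease that starts extrinsic apoptosis. TNF receptor 2, the product of Tnfrsf1b, has no death domain and signals through TRAF proteins. RIPK1 is the kinase that links TNF receptor 1 to survival signalling or to death. When caspase-8 is inactive, RIPK1 can engage RIPK3, which phosphorylates MLKL, the protein that breaks the plasma membrane in necroptosis. In the brain these proteins are known from glia as well as neurons, and the receptors also carry signals that do not end in death. RNA levels do not measure cleavage, phosphorylation or death of cells.

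Total estimated counts ran from 15064309 to 34348284 per library. Ch25h had 18 to 40 reads per library in WT and 133 to 300 in T, against 0 to 2 in CKO and 0 to 1 in TCKO, which matches the labels. Mapt, to which reads of the human transgene may also be assigned, had mean levels of 347 and 375 CPM (counts per 1000000 reads of the TMM-scaled library total) in WT and CKO and of 769 and 986 CPM in T and TCKO. Markers of microglia, astrocytes, neurons and oligodendrocytes were all present. WT replicate 1 and T replicate 4 stood apart in choroid plexus markers, whose summed levels were 7287 and 7674 CPM there and 20.3 to 426 CPM in the other 14 libraries.

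The promoters of the genes whose RNA moved together are shown for their sequence context. RefSeq promoter windows on GRCm38.p6 hold 250 bases before and 50 after each transcription start, and all 7 genes matched a window, Ripk1 with 2. The lines below give the longest stretch before the RefSeq start that lies outside annotated exons, 5′ to 3′ on the gene's strand, for Fas (chr19:34290409-34290658, plus strand), Tnfrsf1a (chr6:125349509-125349722, plus strand), Tnfrsf1b (chr4:145246871-145247120, minus strand) and Casp8 (chr1:58802252-58802501, plus strand). Capitals mark matches to the IRF core AANNGAAA or the STAT site TTCNNNGAA, each searched on both strands.
Fas: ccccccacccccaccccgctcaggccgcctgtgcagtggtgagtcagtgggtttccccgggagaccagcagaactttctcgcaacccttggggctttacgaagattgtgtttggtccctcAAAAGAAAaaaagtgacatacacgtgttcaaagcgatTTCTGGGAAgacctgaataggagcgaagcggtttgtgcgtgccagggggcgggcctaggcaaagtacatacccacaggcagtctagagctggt
Tnfrsf1a: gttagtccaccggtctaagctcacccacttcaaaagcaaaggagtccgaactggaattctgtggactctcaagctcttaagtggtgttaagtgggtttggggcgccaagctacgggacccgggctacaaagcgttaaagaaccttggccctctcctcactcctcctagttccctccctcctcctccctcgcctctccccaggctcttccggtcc
Tnfrsf1b: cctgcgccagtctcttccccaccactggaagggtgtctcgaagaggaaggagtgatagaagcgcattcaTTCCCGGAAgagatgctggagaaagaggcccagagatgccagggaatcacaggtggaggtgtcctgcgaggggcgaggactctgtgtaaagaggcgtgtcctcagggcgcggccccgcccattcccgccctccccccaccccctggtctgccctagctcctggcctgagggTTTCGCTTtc
Casp8: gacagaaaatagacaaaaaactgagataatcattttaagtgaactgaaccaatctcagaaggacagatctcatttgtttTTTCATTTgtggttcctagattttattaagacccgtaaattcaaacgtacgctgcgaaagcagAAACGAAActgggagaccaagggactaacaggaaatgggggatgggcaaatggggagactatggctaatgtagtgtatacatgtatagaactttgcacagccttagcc
The Fas stretch held 1 IRF core, with its first base at -130 from the start, and 1 STAT site at -93. In the Tnfrsf1b stretch the STAT site lay at -181 and the IRF core at -10, while Casp8 held 2 IRF cores, at -171 and -108. The Tnfrsf1a stretch held neither, and the only Tnfrsf1a match was a STAT site at -244 in the exonic part of its window, which is not printed. The printed Tnfrsf1a and Casp8 stretches lie inside their annotated genes, which begin at 125349362 and 58795374, and not upstream of them. Over whole windows, 4 of the 8 promoters held the IRF core (Fas, Tnfrsf1b, Casp8 and 1 of Ripk1) against 23.9% of all 32851 promoters of 300 bases. The STAT site was in 4 of the 8 (Fas, Tnfrsf1a, Tnfrsf1b and 1 of Ripk1) against 8.3% of all promoters. The NF-kB core GGANTTTCC was in none of the 8 and in 1.25% of all promoters. At so low a share, its absence from 8 windows says little about NF-kB sites in these genes. The letters of all these motifs are matches only and show no binding. The 2 motifs do not share bases in the printed stretches.

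Per length, as mean TPM (transcripts per 1000000) in the deposited files, Tnfrsf1a and Fas were the most abundant of the 7 in all 4 genotypes and Mlkl the least. The libraries of Fas and Casp8 overlapped in TCKO, and those of Mlkl and its neighbour in this order overlapped in WT, CKO and TCKO. In T the mean TPM levels were 35.4 for Tnfrsf1a, 23.4 for Fas, 7.48 for Casp8, 2.86 for Tnfrsf1b, 1.20 for Ripk3, 1.20 for Ripk1 and 0.682 for Mlkl. Within T the libraries of Tnfrsf1a and Fas overlapped, as did those of Ripk3 and Ripk1, and the other neighbours in this order did not. In WT the mean TPM was 7.22 for Tnfrsf1a, 5.16 for Fas and 2.10 for Casp8, and the remaining 4 genes lay between 0.347 and 0.766 with overlapping libraries. Reads per gene differed widely: Tnfrsf1a averaged 657.0 estimated counts per library, against 18.9 for Ripk3 and 13.6 for Mlkl.

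**Figure D1:**
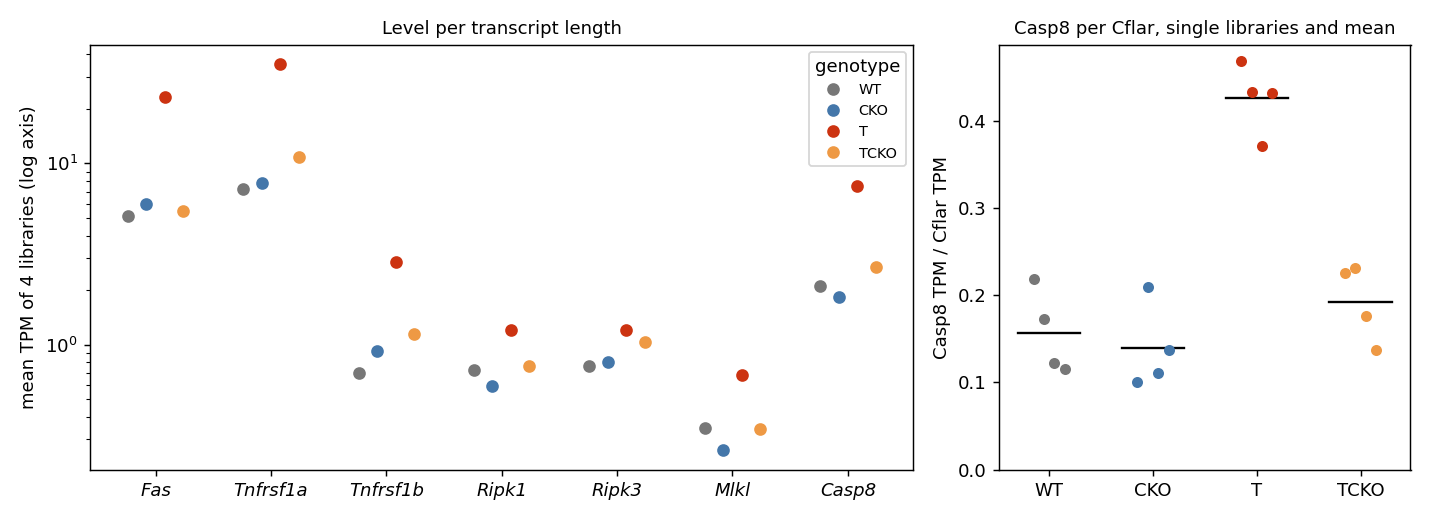
Left: mean TPM of 4 libraries per genotype for each gene, on a log axis. Right: Casp8 TPM divided by Cflar TPM in each library (points) with the group mean (line); the T libraries, from 0.371 to 0.469, lie above all others, which reach 0.231.

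With Ch25h intact, the tau transgene came with higher RNA of 6 of the 7 genes: Tnfrsf1a, Fas, Tnfrsf1b, Casp8, Ripk3 and Ripk1. The rises in T against WT ran from 4.78-fold for Tnfrsf1a to 1.88-fold for Ripk1, and Mlkl did not pass. Of all genes tested, 13% were called higher in this comparison, by edgeR's quasi-likelihood test with Benjamini-Hochberg adjustment over all 18565 genes at 0.05. With effective transcript length as an offset, Ripk3 (adjusted p = 0.419, edgeR) and Ripk1 (0.165) lost the call. Ripk1 also lost it when any 1 of 3 single libraries was left out. The median log2 fold change of the 7 was 1.89, against -0.01 over all genes tested. For the same 6 genes every T library exceeded every WT library, which held for 25.1% of all genes in one direction or the other. In hippocampal RNA, a change in the number of cells of a type and a change in RNA per cell cannot be told apart.

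With the transgene present, loss of Ch25h came with lower RNA of 5 of the 7 genes. In TCKO against T, Fas fell to 0.233-fold, Tnfrsf1a to 0.296-fold, Casp8 to 0.343-fold, Tnfrsf1b to 0.378-fold and Ripk1 to 0.497-fold, while Ripk3 and Mlkl did not pass. With effective transcript length as an offset Ripk1 lost its call (adjusted p = 0.202, edgeR). The share of all genes called lower was 8.05%, and the median log2 fold change was -1.52 for the 7 and 0.02 for all genes. Every TCKO library lay below every T library for these 5 genes, as for 14.8% of all genes in either direction. T against WT and TCKO against T share the T libraries, so the 2 sets of values are not independent of each other.

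**Figure D2:**
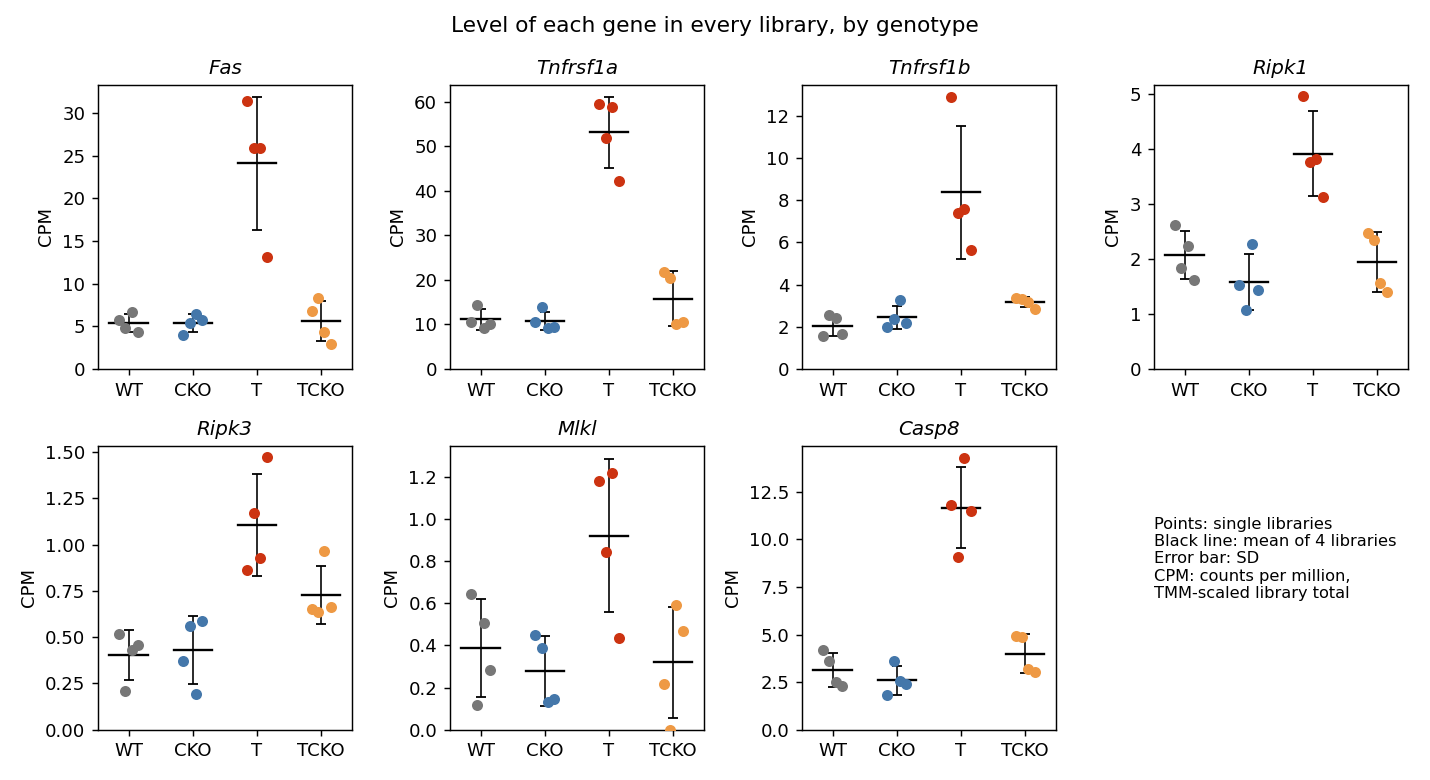
CPM of each gene in every library (points), with the mean (line) and SD (bar) of the 4 libraries of each genotype; each axis starts at 0. T libraries lie above the others for Fas, Tnfrsf1a, Tnfrsf1b, Ripk1 and Casp8, while for Ripk3 and Mlkl T overlaps TCKO.

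Fas levels in the 4 WT libraries were 5.68, 4.75, 6.70 and 4.34 CPM, and those in the 4 CKO libraries were 4.01, 5.39, 6.44 and 5.73 CPM. In T they were 31.4, 25.9, 25.9 and 13.1 CPM, and in TCKO 6.77, 8.30, 4.37 and 2.97 CPM. All 4 T libraries were above the other 12, although T replicate 5 was well below the other T libraries, and TCKO overlapped both WT and CKO. The log2 fold change of Fas was 2.17 ± 0.30 (SE; adjusted p = 7.27e-05, edgeR) in T against WT and -2.10 ± 0.30 (adjusted p = 0.000207) in TCKO against T. Fas lies on chromosome 19 at 34290666 to 34327772 (GRCm38, plus strand), 146.0 kb from the deleted gene Ch25h. In mice without the transgene, CKO against WT, its log2 fold change was 0.00 ± 0.30 with a 95% interval from -0.58 to 0.59.

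Tnfrsf1a, on chromosome 6 at 125349362 to 125362484, was the most abundant of the 7 genes. The 4 WT libraries had 10.6, 14.4, 9.22 and 10.2 CPM, and the 4 CKO libraries had 10.6, 13.8, 9.24 and 9.44 CPM. In T the levels were 59.5, 51.9, 58.9 and 42.3 CPM, and the 4 TCKO libraries had 21.7, 20.4, 10.2 and 10.6 CPM. The T libraries were far above all others; in TCKO, replicates 2 and 3 were above every WT and CKO library, and replicates 4 and 5 were within their range. The log2 fold change was 2.26 ± 0.24 (SE; adjusted p = 6.03e-06, edgeR) in T against WT and -1.75 ± 0.24 (adjusted p = 0.000129) in TCKO against T.

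Tnfrsf1b, the receptor without a death domain, lies on chromosome 4 at 145213463 to 145246870. Its levels in the 4 WT libraries were 1.58, 2.55, 2.41 and 1.66 CPM, and those in the 4 CKO libraries were 2.01, 2.37, 3.25 and 2.17 CPM. The T libraries had 12.9, 7.40, 7.58 and 5.62 CPM, and the 4 TCKO libraries had 3.34, 3.33, 3.15 and 2.85 CPM. T was above all other libraries and its replicate 2 above the other T libraries, while the TCKO libraries lay close together and overlapped CKO but not WT. The log2 fold change was 2.03 ± 0.26 (SE; adjusted p = 3.13e-05, edgeR) in T against WT and -1.4 ± 0.25 (adjusted p = 0.00135) in TCKO against T.

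Casp8, on chromosome 1 at 58795374 to 58847503, followed the receptors. It had 4.20, 3.59, 2.52 and 2.29 CPM in the 4 WT libraries and 1.80, 3.62, 2.54 and 2.39 CPM in the 4 CKO libraries. Casp8 stood at 11.8, 9.09, 14.3 and 11.5 CPM in T and at 4.90, 4.88, 3.19 and 3.04 CPM in TCKO. No T library overlapped another genotype, and TCKO overlapped WT and CKO. The log2 fold change was 1.89 ± 0.26 (SE; adjusted p = 5.76e-05, edgeR) in T against WT and -1.54 ± 0.25 (adjusted p = 0.000615) in TCKO against T. The RefSeq start used for the printed Casp8 window lies inside the annotated gene, and 7 of 16 libraries had an estimated Casp8 count that was not whole.

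Cflar encodes c-FLIP, the catalytically inactive relative of caspase-8 that competes with it at FADD. Its TPM moved less than that of Casp8, so the ratio of Casp8 to Cflar TPM differed between genotypes. The ratio was 0.219, 0.173, 0.122 and 0.115 in the 4 WT libraries, and 0.1, 0.209, 0.111 and 0.137 in the 4 CKO libraries. It was 0.469, 0.433, 0.371 and 0.432 in the 4 T libraries, and the 4 TCKO libraries had 0.226, 0.231, 0.176 and 0.137. The T libraries did not overlap any other genotype, and TCKO overlapped WT and CKO. The ratio was chosen with the change of Casp8 known and is given as a description. Cflar had log2 fold changes of 0.51 ± 0.10 (adjusted p = 0.00159, edgeR) in T against WT and -0.62 ± 0.10 (adjusted p = 0.000554) in TCKO against T, both of which lost their call when effective transcript length was an offset (adjusted p = 0.0621 and 0.0763).

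Ripk1, on chromosome 13 at 34002363 to 34037147, had the smallest rise of the 6 genes called in T against WT and the smallest fall of the 5 called in TCKO against T. The 4 WT libraries had 2.61, 1.84, 2.23 and 1.62 CPM, and the 4 CKO libraries had 1.52, 1.08, 2.28 and 1.43 CPM. For T the values were 4.97, 3.77, 3.81 and 3.12 CPM, and the 4 TCKO libraries had 2.47, 2.34, 1.56 and 1.4 CPM. The T libraries were all above the rest, and the other 3 genotypes overlapped. The log2 fold change was 0.91 ± 0.27 (SE; adjusted p = 0.0198, edgeR) in T against WT and -1.01 ± 0.27 (adjusted p = 0.0206) in TCKO against T.

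The T against WT call of Ripk1 ended without WT replicate 2 (adjusted p = 0.0536), WT replicate 5 (0.0657) or T replicate 2 (0.0765), and its TCKO against T call without T replicate 2 (0.0822) or TCKO replicate 5 (0.0725) or when only the 8 libraries compared were fitted (0.0526); with effective length as an offset neither passed (0.165 and 0.202). Ripk1 shares 511 exonic bases with the pseudogene Gm17084 on its own strand and 241 with Serpinb6a on the other strand, and its estimated counts were not whole in 15 of 16 libraries, so how its reads were divided is uncertain.

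Ripk3, the kinase that commits a cell to necroptosis, lies on chromosome 14 at 55784995 to 55788865 and had 3 to 47 reads per library. Levels were 0.517, 0.208, 0.432 and 0.459 CPM in the 4 WT libraries and 0.369, 0.560, 0.195 and 0.588 CPM in the 4 CKO libraries. T had 0.860, 1.17, 0.928 and 1.47 CPM, and the 4 TCKO libraries had 0.651, 0.634, 0.964 and 0.663 CPM. All T libraries were above WT and CKO; TCKO lay above WT and CKO as well, and its replicate 4 reached into the T range. The log2 fold change was 1.45 ± 0.38 (SE; adjusted p = 0.011, edgeR) in T against WT and -0.60 ± 0.37 (adjusted p = 0.308; 95% interval from -1.32 to 0.12) in TCKO against T. The effective length of Ripk3 ranged from 348 to 1774 bases between libraries, and with that length as an offset the T against WT value was 0.79 (adjusted p = 0.419), so the call did not hold with that offset.

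Mlkl, the membrane-breaking effector, lies on chromosome 8 at 111311797 to 111338177 and had 0 to 38 reads per library. The 4 WT libraries had 20, 4, 14 and 8 reads (0.646, 0.119, 0.504 and 0.282 CPM), and the 4 CKO libraries had 11, 9, 2 and 4 reads. In T there were 37, 23, 38 and 14 reads (1.18, 0.843, 1.22 and 0.437 CPM), and the 4 TCKO libraries had 5, 0, 16 and 12 reads. The T libraries other than replicate 5 were above all others, but T replicate 5 overlapped the other genotypes. Its log2 fold change was 1.24 ± 0.70 (adjusted p = 0.222, edgeR; 95% interval from -0.14 to 2.62) in T against WT and -1.52 ± 0.72 (adjusted p = 0.178; interval from -2.93 to -0.11) in TCKO against T. Neither a rise as large as that of Casp8 nor no change was outside the interval in T against WT.

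In mice without the tau transgene, none of the 7 genes passed the test for a difference with Ch25h deleted. In CKO against WT 0 of 7 were called by edgeR, DESeq2 or limma voom, and 0 had an unadjusted p under 0.05 with any of the 3 tools. edgeR called 0.0108% of all genes there, and 11.3%, 11.8% and 11.3% of all genes had an unadjusted p under 0.05 with edgeR, DESeq2 and limma voom. The log2 fold changes ran from -0.44 ± 0.76 for Mlkl to 0.25 ± 0.26 for Tnfrsf1b. For the well-read genes the 95% intervals left room for changes of limited size: -0.51 to 0.42 for Tnfrsf1a, -0.26 to 0.75 for Tnfrsf1b and -0.79 to 0.22 for Casp8. No gene of the 7 had CKO libraries separate from WT, while 8.94% of all genes did.

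With Ch25h absent from both groups, none of the 7 passed the test for a difference with the tau transgene. In TCKO against CKO 0 of 7 were called by edgeR, DESeq2 or limma voom, against 0.539% of all genes with edgeR, and the median log2 fold change was 0.38 for the 7 and 0.01 for all genes. Casp8 (0.63 ± 0.26; adjusted p = 0.22) and Tnfrsf1a (0.54 ± 0.24; adjusted p = 0.246) had unadjusted p-values under 0.05 in edgeR, 0.0262 and 0.0352. With DESeq2 2 genes and with limma voom 1 gene had such p-values, and the shares of all genes with one were 17.5% in edgeR, 18.4% in DESeq2 and 15.6% in limma voom. Ripk3 was the only gene whose TCKO libraries were all above the CKO libraries, which held for 10.3% of all genes in either direction, and its value was 0.73 ± 0.39 (adjusted p = 0.347). Fas stood at 0.06 ± 0.30 with an interval from -0.52 to 0.65.

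The difference between these 2 changes was tested directly as an interaction, the change from CKO to TCKO minus the change from WT to T. It was negative for all 7 genes and passed for 3: Fas at -2.10 ± 0.42 (SE; adjusted p = 0.0129, edgeR), Tnfrsf1a at -1.71 ± 0.33 (adjusted p = 0.0108) and Tnfrsf1b at -1.65 ± 0.36 (adjusted p = 0.0202). Among all genes 2.45% were called lower. By this test the change with the transgene was smaller without Ch25h for the 3 receptors. Tnfrsf1b narrowly lost this call with limma voom (adjusted p = 0.0526) and without the 2 choroid-rich libraries (0.054). Casp8, at -1.26 ± 0.36, did not pass (adjusted p = 0.0675) but passed with DESeq2 (0.0171), with a minimum of 1 CPM in 4 libraries (0.0498), without WT replicate 1 (0.0457) and with all libraries thinned to the shallowest (0.0237). Ripk1 (-0.60 ± 0.38), Ripk3 (-0.72 ± 0.54) and Mlkl (-1.08 ± 1.05) had intervals that included 0.

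**Figure D3:**
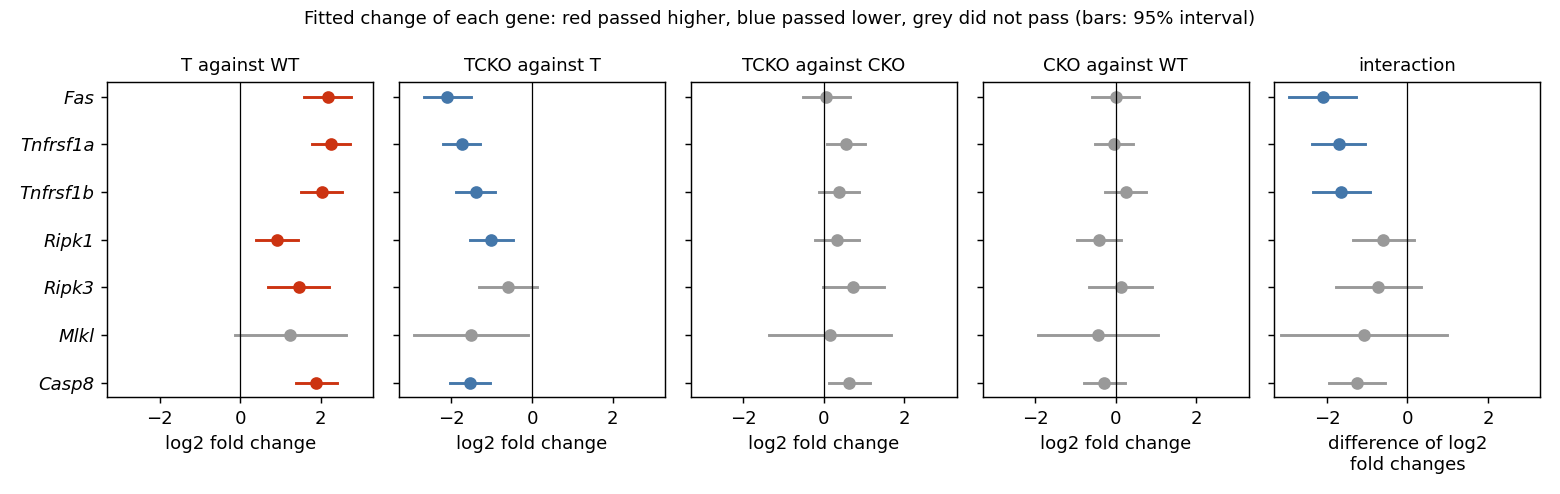
Fitted log2 fold change of each gene (point) with its 95% interval (bar) in the 4 comparisons and the interaction; red passed higher, blue passed lower and grey did not pass. The receptors and Casp8 have short intervals and Mlkl the widest, and all grey points in the 2 comparisons of TCKO against CKO and CKO against WT lie between -0.44 and 0.73.

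The 7 genes did not rank the libraries alike. Within T, replicate 2 was highest for 4 of 7 genes (Fas, Tnfrsf1a, Tnfrsf1b and Ripk1) and lowest for Ripk3, while replicate 5 was lowest for 5 genes and highest for Ripk3. Within TCKO, replicates 2 and 3 had the higher levels for 5 of 7 genes, the 3 receptors, Ripk1 and Casp8, while replicates 4 and 5 were higher for Ripk3 and Mlkl. The summed microglia markers of the 4 TCKO libraries were 1039, 920, 598 and 656 CPM, and the summed astrocyte markers 6931, 6037, 4465 and 3953 CPM. Both sums were higher in replicates 2 and 3, as were the 5 genes, and the part of cell numbers in this was not tested.

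The genes with the most similar profiles differed between members. Likeness was the root mean square difference of log2 CPM, centred on the WT mean, over the 16 libraries, among 13123 genes for the 5 members that average at least 1 CPM themselves and 13124 for Ripk3 and Mlkl. The nearest to Fas were Pdpn (0.28), Aqp4 (0.29) and Abca1 (0.30). Nearest to Tnfrsf1a were Cd53 (0.22), Lcp1 (0.23) and Cd37 (0.23), and to Tnfrsf1b Abi3 (0.26), Csf1 (0.26) and Sat1 (0.27). Casp8 was nearest to Tspo (0.25), F11r (0.25) and Ctsd (0.26), and Ripk1 to Tmem179b (0.22), Cd151 (0.22) and Dbi (0.24). Ripk3 (Ogfr, 0.38) and Mlkl (Sphk1, 0.64) had no gene as close. These 2 averaged 18.9 and 13.6 counts per library, and the part of counting noise in this was not tested. The root mean square of the member's own centred values was 1.13 for Fas, 1.19 for Tnfrsf1a, 1.08 for Tnfrsf1b and 1.02 for Casp8. It was 0.58 for Ripk1, 0.86 for Ripk3 and 1.06 for Mlkl, so equal differences are not equally close in proportion. These values are descriptions over libraries that share genotype and depth.

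Markers of several cell types moved with the same genotypes, and those of others did not follow them throughout. The summed level of 10 microglia markers was 498 to 672 CPM in WT and 547 to 586 in CKO, but 1316 to 1671 in T, with 598 to 1039 in TCKO; 9 of 10 rose in T against WT and 7 of 10 fell in TCKO against T. The 8 astrocyte markers summed to 3846 to 4413 CPM in WT and 3470 to 3829 in CKO, but 9599 to 12761 in T, with 3953 to 6931 in TCKO, with 4 of 8 higher in T against WT and 4 of 8 lower in TCKO against T. Of 8 neuron markers 4 fell in T against WT, and their sum was 6593 to 7595 CPM in WT and 4341 to 6240 in T. The 8 T cell markers had far lower sums, 2.19 to 2.70 CPM in WT and 2.01 to 2.89 in CKO, but 10.2 to 17.3 in T, with 1.44 to 3.90 in TCKO, and 7 of 8 rose in T. Border macrophage and monocyte markers summed to 9.23 to 11.3 CPM in WT and 11.1 to 25.6 in T, where 2 of 8 rose, and to 5.93 to 7.16 in TCKO. The 6 oligodendrocyte markers summed to 3482 to 15369 CPM in WT, 5193 to 8692 in CKO, 9903 to 21618 in T and 13163 to 17396 in TCKO, with 2 of 6 higher in T against WT and 0 of 6 lower in TCKO against T. Of 7 endothelium and pericyte markers 3 were higher in T against WT and 1 was lower in TCKO against T. No marker was at 0 in all libraries, and the part of these cell types in the changes of the 7 genes was not tested.

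Set against the microglia markers of the same library, the genes differed in how far they stood above WT in T. Tnfrsf1a had 19.3 reads per 1000 microglia-marker reads in WT (13.7 to 22.0), 34.9 in T (26.7 to 39.4) and 19.1 in TCKO (16.1 to 22.2), so its T libraries stayed above both. Fas had 9.29 in WT (7.24 to 11.4), 15.8 in T (8.28 to 19.7) and 6.84 in TCKO (4.52 to 9.02), with overlap between T and WT. Casp8 had 5.54 in WT (3.75 to 8.42), 7.60 in T (6.91 to 9.17) and 5.0 in TCKO (4.64 to 5.33), and Tnfrsf1b 3.48, 5.44 and 4.11. Ripk3 stood at 0.725 in WT and 0.732 in T, and Ripk1 at 3.64 in WT and 2.56 in T. The markers themselves changed with genotype, and other cell types can express these genes, so the ratios are a description.

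The wider pathway was followed in 8 lists holding 68 other genes, of which 64 were tested. In T against WT 28 of 64 were higher and 3 lower, with a median log2 fold change of 0.40, where 13% and 11.2% of all genes were called higher and lower. In TCKO against T 20 were lower and 1 higher, with a median of -0.25, where 8.05% and 4.81% of all genes were. The shares of the less frequent direction were less stable: the 2073 genes lower in T against WT became 882 without the choroid-rich libraries, and the 893 higher in TCKO against T became 202 when only the 8 libraries compared were fitted. In the interaction 5 of 64 were lower and 0 higher, where 2.45% and 0.695% of all genes were. Of these 5, Eif2ak2 (adjusted p = 0.0448, edgeR) lost its call in 15 of 27 alternatives and Casp4 in 2. In CKO against WT and in TCKO against CKO 0 of 64 were called with edgeR, DESeq2 or limma voom. At an unadjusted p under 0.05, edgeR, DESeq2 and limma voom had 5, 5 and 4 of the 64 in CKO against WT, where 11.3%, 11.8% and 11.3% of all genes had one. In TCKO against CKO they had 13, 14 and 11 of the 64, where the shares of all genes were 17.5%, 18.4% and 15.6%.

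**Figure D4:**
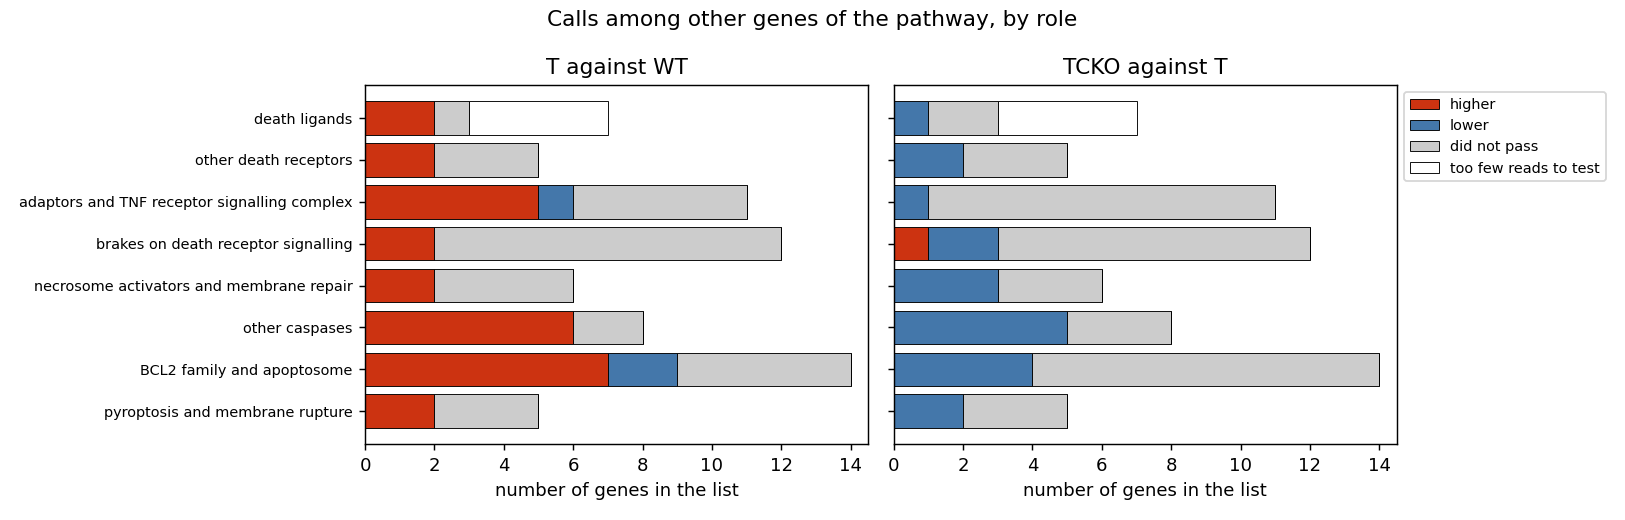
Number of genes called higher (red), lower (blue), not passed (grey) or too rarely read to test (white) in each pathway list. In T against WT calls are mostly higher, with 6 of 8 caspases red, and in TCKO against T they are mostly lower.

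The ligands of these receptors were read rarely. Tnf, the ligand of both TNF receptors, had 10, 7, 5 and 4 reads in the 4 T libraries and at most 3 in any other library, and its rate in T was 8.58 times that in WT (95% counting interval 2.63 to 44.3, from 26 and 3 reads). Fasl, the ligand of Fas, had 14, 18, 8 and 7 reads in the same T libraries, 0 to 4 in WT, 0 to 1 in CKO and 0 to 8 in TCKO, and its rate in T was 5.82 times that in WT (2.72 to 14.3, from 47 and 8 reads). Both were under the filter and were not tested, and the intervals cover counting error only. Of 3 other ligands of the TNF family that were tested, Ltb (2.12 ± 0.51, adjusted p = 0.00648, edgeR) and Tnfsf10, which encodes TRAIL (1.31 ± 0.35, adjusted p = 0.0119), were higher in T against WT. With the replicate number as a block Tnfsf10 lost that call (adjusted p = 0.0658), so 1 of 3 remained called.

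Among 5 other receptors of the family, 2 rose in T against WT and fell in TCKO against T. Tnfrsf12a, the receptor for TWEAK, went from 4.35 ± 1.11 CPM (SD, n = 4) in WT to 25.4 ± 11.1 in T and 7.56 ± 2.09 in TCKO, with an interaction of -2.11 ± 0.42 (adjusted p = 0.0125, edgeR). Tnfrsf10b, the mouse TRAIL receptor, went from 0.711 ± 0.143 to 1.79 ± 0.620 and 0.730 ± 0.0960 CPM, and its fall in TCKO against T ended without T replicate 2 (adjusted p = 0.0529). Tnfrsf21, at 48.2 ± 6.79 CPM in WT and 51.4 ± 10.1 in T, did not pass (log2 fold change 0.09 ± 0.17, adjusted p = 0.758). Ngfr and Tnfrsf25 did not pass in either comparison.

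Of 11 adaptors and kinases of the receptor complex, 5 were higher in T against WT and 1 lower, and 1 was lower in TCKO against T. Fadd, which bridges the receptors to caspase-8, was at 3.66 ± 0.790 CPM in WT, 6.77 ± 1.29 in T and 4.41 ± 0.813 in TCKO, and Tradd, the adaptor of TNF receptor 1, at 5.95 ± 1.10 in WT and 10.6 ± 2.51 in T. Fadd (0.89 ± 0.20; adjusted p = 0.00401, edgeR) and Tradd (0.83 ± 0.19; adjusted p = 0.00539) both rose in T. The gene that was lower was Ikbkg (-0.38 ± 0.12; adjusted p = 0.0313), named after its value was seen. Without the 2 choroid-rich libraries the count in T against WT was 2 higher and 0 lower, and 3 to 5 were higher when single libraries were left out. The call in TCKO against T was Fadd (-0.62 ± 0.20; adjusted p = 0.0499), which ended in 20 alternatives (adjusted p up to 0.181).

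Of 12 genes listed as regulators of death receptor signalling, 2 rose in T against WT, where 13% of all genes were called higher. The list is named for brakes on this signalling, but its genes, Cyld among them, need not all oppose cell death. Birc3, which encodes the ubiquitin ligase cIAP2, rose from 1.52 ± 0.342 to 5.44 ± 0.855 CPM (1.83 ± 0.29; adjusted p = 0.000256, edgeR) and was at 2.13 ± 0.836 CPM in TCKO (-1.35 ± 0.29; adjusted p = 0.00501). Cflar was the other. Tnfaip3, which encodes the deubiquitinase A20, did not pass (0.27 ± 0.33; adjusted p = 0.615). In TCKO against T 2 were lower and 1 higher, and the higher one, Cyld (adjusted p = 0.0427), ended in 18 alternatives (adjusted p up to 0.131), the one without the choroid-rich libraries among them.

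Among 6 genes that start or oppose necroptosis by other routes, Zbp1 had the largest change. Zbp1 encodes a sensor of Z-form nucleic acid that can engage RIPK3 without a death receptor. It was at 0.343 ± 0.215 CPM in WT and 0.0774 ± 0.0841 in CKO, but 7.38 ± 3.25 in T, with 0.293 ± 0.0912 in TCKO (SD, n = 4). Its log2 fold change was 4.39 ± 0.50 (SE; adjusted p = 1.1e-05, edgeR) in T against WT and -4.62 ± 0.52 (adjusted p = 3.61e-05) in TCKO against T. The interaction of Zbp1 did not pass (-2.34 ± 0.99, adjusted p = 0.211, edgeR). In TCKO against CKO its value was 2.04 ± 0.70 (adjusted p = 0.154), which did not pass either. Eif2ak2, which encodes the double-stranded RNA sensor PKR, rose from 7.87 ± 1.98 to 24.6 ± 3.98 CPM in T and was at 7.23 ± 2.24 in TCKO. In this list 2 of 6 were higher in T and 3 of 6 lower in TCKO against T; the third, Ticam1, which encodes the adaptor TRIF, lost its call in 7 alternatives (adjusted p from 0.0634 to 0.107), among them those without T replicates 2 or 3 or TCKO replicates 3, 4 or 5. Chmp2a, Chmp4b and Pgam5 did not pass in either comparison.

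Other caspases rose in T against WT in 6 of 8 cases and fell in TCKO against T in 5 of 8. The inflammatory caspases changed most. Casp4 was at 0.393 ± 0.240 CPM in WT, 4.37 ± 0.652 in T and 0.682 ± 0.336 in TCKO, with log2 fold changes of 3.47 ± 0.41 (adjusted p = 1.5e-05, edgeR) and -2.67 ± 0.39 (adjusted p = 0.000253). Casp12 went from 1.01 ± 0.384 to 3.50 ± 1.08 and 1.10 ± 0.366 CPM, and Casp1 from 2.18 ± 0.985 to 6.53 ± 0.687 and 2.06 ± 0.640 CPM. In T against WT 4 of 8 were higher without the choroid-rich libraries and 4 to 6 when single libraries were left out.

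The mitochondrial arm was mixed. Of 14 BCL2 family and apoptosome genes, 7 were higher and 2 lower in T against WT, and 4 were lower in TCKO against T. Bcl2a1b, an anti-apoptotic gene of blood and immune cells with near-identical copies whose reads could have been divided among them, went from 2.06 ± 0.350 to 24.0 ± 5.35 and 4.45 ± 2.07 CPM, with an interaction of -2.50 ± 0.50 (adjusted p = 0.0131, edgeR). Protective Mcl1 (0.92 ± 0.19; adjusted p = 0.00258) and Bcl2 (0.96 ± 0.21; adjusted p = 0.00355) rose in T, as did the pore former Bax (0.55 ± 0.12; adjusted p = 0.00348) and the BH3-only gene Bcl2l11 (1.02 ± 0.24; adjusted p = 0.00539). Bid, whose product caspase-8 cleaves, was at 20.8 CPM in both WT and T and did not pass (0.00 ± 0.16; adjusted p = 0.994). The 2 lower genes were Apaf1 (-1.4 ± 0.33; adjusted p = 0.00551), the scaffold of the apoptosome, and Cycs (-0.33 ± 0.09; adjusted p = 0.012), which encodes cytochrome c; Bid, Apaf1 and Cycs were named after their values were seen. Without the choroid-rich libraries 6 were higher and 0 lower in T against WT, and leaving out single libraries gave 1 to 5 lower in TCKO against T.

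Of 5 genes for pyroptosis and membrane rupture, 2 rose in T against WT and fell in TCKO against T. Pycard, which encodes the inflammasome adaptor ASC, went from 5.25 ± 0.938 CPM in WT to 30.2 ± 6.01 in T and 7.73 ± 2.41 in TCKO, with an interaction of -2.05 ± 0.35 (adjusted p = 0.00558, edgeR). Gsdmd, the pore-forming substrate of the inflammatory caspases, went from 1.53 ± 0.742 to 5.19 ± 0.909 and 1.83 ± 1.0 CPM, and its fall in TCKO against T ended without T replicate 2 (adjusted p = 0.0529) or TCKO replicate 5 (0.0548). Gsdme, at 174 ± 7.77 CPM in WT and 166 ± 7.73 in T, did not pass (-0.07 ± 0.12; adjusted p = 0.732), and neither did Ninj1 or Nlrp3.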

How the data were processed

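The 16 hippocampal libraries came from total RNA by oligo-dT priming (SMARTer Ultra Low), per the labels' protocols. The submitters' processing notes list GRCm38, bcl2fastq, STAR 2.5.1a, Subread and featureCounts 1.4.6-p5 and do not say what each did. The deposited values are estimated counts (expected counts, not always whole) and TPM with an effective length per gene, per the file headers; the quantifier and its strand setting are not given in the sources used here. Of 55774 lines, 287 repeated a gene, and the series table matched the files of single samples at all 887792 values within 0.01 reads.

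Rounded counts of all 16 libraries entered 1 edgeR fit (version 4.0.16, R 4.3.3) with TMM scaling, the filterByExpr filter and 1 coefficient per genotype. Contrasts were tested by quasi-likelihood F-test, and p-values were adjusted by Benjamini-Hochberg across 18565 genes, with a threshold of 0.05. The fit was run on simulated counts in which a small set of genes changed, in T alone, and only T against WT was checked. The other contrasts, the interaction among them, were not checked in this way. CPM use TMM-scaled totals. Coordinates are from GENCODE M21 and promoters from RefSeq, both on GRCm38. Deviations from the group mean in same-numbered WT and T libraries had correlations of 0.12, 0.14 and 0.30. Those of WT and CKO were -0.05, 0.02, 0.17 and 0.27. T and TCKO ranged from -0.14 to 0.17, and CKO and TCKO from -0.03 to 0.04. Differently numbered libraries were not compared, so whether the numbers pair libraries was not tested. The labels do not say what a number marks. Alternatives were DESeq2 1.42.0, limma 3.58.1 (voom), 3 other scalings, 2 other filters, effective length as an offset, the replicate block, only the 8 libraries compared, and leaving out each library; leaving out the 2 choroid-rich libraries and thinning to 15064258 reads were chosen after seeing the data.

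The 7 genes, lists and motifs were chosen with earlier results of these data known. Named genes were the 7, Ch25h, Mapt, up to 4 genes per list by p in T against WT and up to 2 more in TCKO against T, and the 3 nearest profiles per gene; others are said to be named after their values were seen. The text prints a part of them, and some named genes are not reported here.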

Additional observations from a re-analysis of the deposited data

Results flagged for a closer look

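The change with the tau transgene differed with and without Ch25h for 3 genes, by the test of the interaction in edgeR: Fas at -2.10 on the log2 scale (mean levels 5.37 CPM in WT, 24.1 in T, 5.39 in CKO and 5.6 in TCKO), Tnfrsf1a at -1.71 (11.1, 53.1, 10.8 and 15.7 CPM) and Tnfrsf1b at -1.65 (2.05, 8.37, 2.45 and 3.17 CPM).

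Ripk3 in TCKO replicate 4 lay apart from the other TCKO libraries: at 0.964 CPM against 0.634 to 0.663, its gap on the log2 CPM scale was 0.893 of the group's range, above Dixon's critical value of 0.829. Its 26 reads compare with 15 to 20 in the other TCKO libraries. Of the 28 groups of 4 libraries looked at, this was the 1 that stood out, and chance alone marks about 1 in 20.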

How the results depend on the processing

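Over 35 comparisons of the 7 genes and 962 pairs of a comparison and an alternative, 946 kept their direction and side of the threshold, 11 lost a call, 4 gained one and 1 reversed: Mlkl in TCKO against CKO, never called, was -0.70 with limma voom, and the cause was not tested. The number of the 7 genes called stayed between 4 and 6 in T against WT, 4 and 5 in TCKO against T and 2 and 4 in the interaction, and was 0 in CKO against WT and TCKO against CKO under all 28 alternatives; with at least 1 CPM in 4 libraries Ripk3 and Mlkl were not tested. The replicate block changed no call of the 7 genes in any comparison. It ended the T against WT calls of Traf5 (adjusted p = 0.0629) and Bak1 (0.102), among others.

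Counts over all genes moved more, and the cause was not tested. In T against WT they were 4490 and 2696 without the choroid-rich libraries, with a range of 2934 to 5128 when single libraries were left out. In CKO against WT they were 2, and 109 with DESeq2, 1 with limma voom, 0 with the replicate block, 1 with only 8 libraries and 8 without the choroid-rich libraries, with 0 to 7 when single libraries were left out. In TCKO against T they were 2388, and 1354 with only 8 libraries and 1591 without the choroid-rich libraries, with 1294 to 3278 when single libraries were left out. In TCKO against CKO they were 100, and 765 with DESeq2, 59 with limma voom, 252 with no filter, 5 with the replicate block and 301 with only 8 libraries, with 11 to 266 when single libraries were left out. The interaction gave 584, and 1250 with DESeq2 and 378 without the choroid-rich libraries, with 298 to 1266 when single libraries were left out. By direction, genes higher in T against WT (1772 to 2741) and lower in TCKO against T (1012 to 1870) stayed within 1.5 times under all 28 alternatives. Genes lower in T against WT went from 2073 to 882 without the choroid-rich libraries, 1254 with no filter, 1380 with only 8 libraries, and 1162 or 1187 without T replicate 2 or 3. Genes higher in TCKO against T went from 893 to 202 with only 8 libraries, 404 without the choroid-rich libraries and 477 with no filter; leaving out T replicate 2, 3, 4 or 5 gave 282, 463, 516 or 1483, and TCKO replicate 2 or 5 gave 488 or 428. Ripk3 and Mlkl had the fewest reads of the 7 genes (18.9 and 13.6 mean counts) and the largest SEs in T against WT (0.38 and 0.70), and the part of depth in this was not tested.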
